A study of Mus musculus with 9 samples.

Results

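Gap43, Basp1, Marcks, Marcksl1, Nefl, Nefm, Erbb3 and Ncam1 were followed as 8 of the 40879 gene symbols listed for engineered mouse muscle. The set was built around Gap43, which was chosen by its counts of 0 in the irradiated constructs. The other 7 genes are relatives of Gap43 or genes best known from neurons, Schwann cells and neural crest. All 8 symbols were found, and all 8 were among the 11980 genes that passed the filter on low counts. Since the irradiated libraries chose Gap43, every value of these 8 genes set against irradiated constructs is given below as a description without a test. Tests on these genes were kept to cocultured against normal constructs.

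The material was 9 constructs of C2C12, an established mouse myoblast line of wild-type genotype, embedded in extracellular matrix derived from muscle tissue. All constructs spent 2 days in growth medium and then 10 days in differentiation medium with 10% equine serum. The 3 normal constructs received no radiation. The 3 irradiated constructs were exposed once to 20 Gy of X-rays, a treatment the labels use to bring about senescence, with no time between dose and harvest given. Each of the 3 cocultured constructs was itself not irradiated and shared its dish with an irradiated one. A single cell line has no nerve, vessel or immune compartment of its own, and the cells that the matrix may have held are not described. With 2 constructs in a dish, libraries of 1 group may share a dish, so p-values measure only the spread between these samples. The design text counts 2 irradiated and 2 normal constructs, whereas the labels give 3 of each, and all 9 libraries were used.

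GAP43 is a protein of the growth cone, the moving tip of an axon, and is attached to the inner face of the membrane by fatty acids. BASP1, MARCKS and MARCKSL1 are attached to the same face of the membrane, are phosphorylated by protein kinase C and interact with acidic lipids, and like GAP43 they act on the actin cortex. MARCKS and MARCKSL1 are made in many cell types, whereas GAP43 is used mostly as a marker of growing axons and has also been described in skeletal muscle cells. NEFL and NEFM are the light and medium subunits of the neurofilament, the intermediate filament of axons. ERBB3 is a receptor for neuregulins that signals through partner receptors, and Schwann cells depend on it. NCAM1 is an adhesion molecule of neurons that is also made by myoblasts and young or denervated muscle fibres.

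Of the 8 genes, Basp1 and Marcksl1 were in the RefSeq promoter table at hand. Their upstream sequences are shown because the table held them and because both, unlike Gap43, had counts in at least 1 irradiated library. Each is the 250 bases before the annotated start, 5′ to 3′ on the gene's strand, in build GRCm38.p6, and capitals mark GGGCGG on the printed strand or its complement. Basp1 lies on the minus strand at chr15:25413765-25414014 and Marcksl1 on the plus strand at chr4:129513331-129513580.
Basp1: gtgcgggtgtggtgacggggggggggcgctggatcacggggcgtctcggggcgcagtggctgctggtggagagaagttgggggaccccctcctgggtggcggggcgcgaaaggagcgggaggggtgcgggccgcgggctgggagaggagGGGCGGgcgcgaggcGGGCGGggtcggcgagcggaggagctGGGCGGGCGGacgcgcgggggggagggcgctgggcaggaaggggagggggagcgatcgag
Marcksl1: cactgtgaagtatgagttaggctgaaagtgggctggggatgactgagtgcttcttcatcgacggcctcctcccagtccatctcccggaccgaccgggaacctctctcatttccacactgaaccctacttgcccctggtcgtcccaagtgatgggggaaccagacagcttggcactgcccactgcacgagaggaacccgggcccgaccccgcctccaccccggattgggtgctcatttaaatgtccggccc
The Basp1 window was 78.8% G and C, more than in 98.3% of the 32851 promoters in the table, whose median was 52.4%. It held 4 matches to GGGCGG, 2 of them overlapping, and 32.7% of all windows of this length held at least 1 match on either strand. The Marcksl1 window was 60.4% G and C and held no GGGCGG. The letters of an E-box, CANNTG, had 1 match upstream of Marcksl1 and 0 upstream of Basp1, against 66.2% of all windows with a match. TATAAA was found in neither window and in 12.4% of all. A match describes letters and was not tested as a binding site.

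Depth ran from 4840993 to 8290468 counts per library. The libraries detected between 8306 and 14159 genes, and irradiated 2 and irradiated 3 detected the fewest. Levels are given as normalised CPM, counts scaled to library totals that were corrected with TMM factors. Counts came from the 3′ end of transcripts and were not divided by length. Levels are compared mainly between libraries. Where genes or sums of genes are set side by side, differences in how well each is counted were not examined. Muscle markers, 10 genes such as Acta1 and Tnnt3, were all detected, and their summed level was 4155 to 79580 CPM in normal, 7479 to 47870 in irradiated and 4241 to 7787 in cocultured libraries. The highest sums of the first 2 groups were those of normal 3 and irradiated 1, which stood apart in this respect and had the lowest TMM factors, 0.556 and 0.728. Normal 3 also had the lowest level of the 3 normal libraries for all 8 genes of the set, against 39.8% of all tested genes. What these libraries contributed to the differences was examined only by leaving them out.

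**Figure D1:**
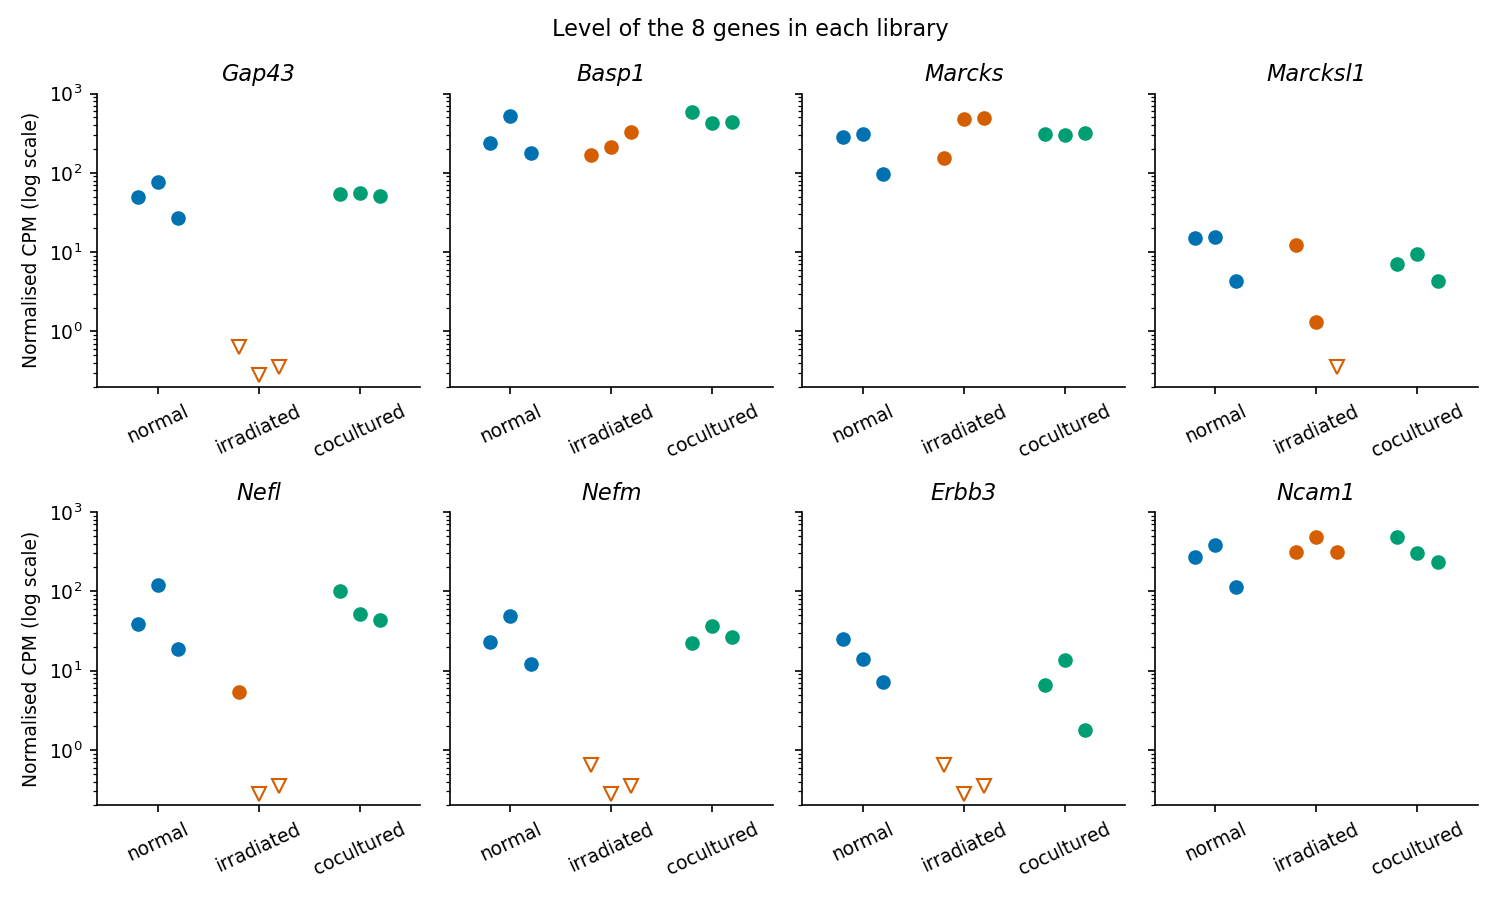
Normalised CPM of each gene on a log axis, 1 point per library in the normal, irradiated and cocultured groups, with open triangles at the level of 3 counts for libraries without a count. Gap43, Nefm and Erbb3 show triangles in all 3 irradiated libraries, while Basp1, Marcks and Ncam1 stand above 90 CPM in every library.

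Gap43 was measured at 49.7, 76.1 and 27.1 CPM in normal constructs 1 to 3 and at 54.1, 56.2 and 51.7 CPM in the cocultured ones. The irradiated libraries held 0, 0 and 0 counts, where 3 counts would have stood for 0.639, 0.282 and 0.352 CPM. The cocultured values lay inside the range of the normal ones and were closer to each other. The means were 51.0 ± 24.5 CPM (SD, n = 3) in normal and 54.0 ± 2.25 CPM (SD, n = 3) in cocultured constructs. Against the level of 3 counts over the irradiated group, Gap43 was at least 405-fold lower in irradiated than in normal constructs and at least 429-fold lower than in cocultured ones. The bound depends on irradiated depth, and was 225-fold and 238-fold without irradiated 2, and 260.5-fold and 276-fold without irradiated 3. In bulk RNA, fewer cells of a type and less RNA per cell cannot be told apart.

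How often a gene at this level went without counts differed between the irradiated libraries. Among the 2549 genes with a mean of 50 to 200 CPM over the normal and cocultured libraries, where Gap43 averaged 52.5, no count was recorded for 0.588% in irradiated 1, 3.92% in irradiated 2 and 2.9% in irradiated 3. Only 4 of these genes, or 0.157%, lacked counts in all 3, and they were Gap43, Nt5e, Rnase2a and Rrp1b. At 20 to 50 CPM the share without counts was 5.23%, 20.5% and 17.1% in the same libraries, and at 10 to 20 CPM it was 18.3%, 44.8% and 39.8%. Normal libraries lacked counts for 0.0675% to 3.24% of genes at 20 to 50 CPM and cocultured ones for 0.371% to 3.54%. Over all tested genes, 7.88% had no count in any irradiated library.

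Basp1, like Gap43 a protein of growth cones, kept counts in every library. Its level was 237, 528 and 178 CPM in normal, 167, 212 and 327 in irradiated and 587, 428 and 437 in cocultured libraries. The lowest cocultured value exceeded the highest irradiated one, and normal 2 reached into the cocultured range. Group means were 314.5 ± 187, 235 ± 82.7 and 484 ± 89.5 CPM (SD, n = 3 each). The fitted log2 fold change was -0.42 ± 0.42 (SE) for irradiated against normal, which became 0.18 without normal 2, and -1.04 ± 0.42 for irradiated against cocultured constructs.

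Marcks, a protein kinase C substrate that crosslinks actin, was measured at 285, 312 and 98.0 CPM in normal, 155, 471 and 496 in irradiated and 308, 299 and 314 in cocultured libraries. Irradiated 1 lay between the normal values, and irradiated 2 and 3 were the highest libraries for this gene. Cocultured libraries differed little from each other, at 307 ± 7.75 CPM (SD, n = 3). The means were 231.5 ± 116.5 in normal and 374 ± 190 in irradiated constructs, with a log2 difference of 0.69 ± 0.48 (SE) and overlapping ranges. Marcksl1, the smaller relative of Marcks, stood at 15.2, 15.5 and 4.38 CPM in normal, 12.4, 1.32 and 0 in irradiated and 7.07, 9.51 and 4.295 in cocultured libraries. All 3 groups overlapped for Marcksl1, with irradiated 1 inside the normal range and irradiated 3 without a count. Its mean of 9.32 CPM over normal and cocultured libraries lay just below the range of 10 to 20 CPM, where 44.8% and 39.8% of genes lacked counts in irradiated 2 and 3.

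Within a library, the number of Gap43 counts per 100 Basp1 counts does not depend on the scaling of that library. The ratio was 20.95, 14.4 and 15.2 in normal and 9.21, 13.1 and 11.8 in cocultured libraries. The 2 groups did not overlap, but single ratios had counting intervals that did, and no test was made of a ratio chosen with these values in view. In irradiated libraries it was 0 with exact 95% binomial upper limits of 0.472, 0.164 and 0.132. Marcks counts per 100 Basp1 counts were 120, 59.1 and 54.9 in normal, 92.6, 223 and 151 in irradiated and 52.35, 69.8 and 71.96 in cocultured libraries. Irradiated 2 and irradiated 3 were above every other library in this ratio, and irradiated 1 was below normal 1. These intervals and all floors cover counting error only, because reads without molecular identifiers are not independent molecules.

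**Figure D2:**
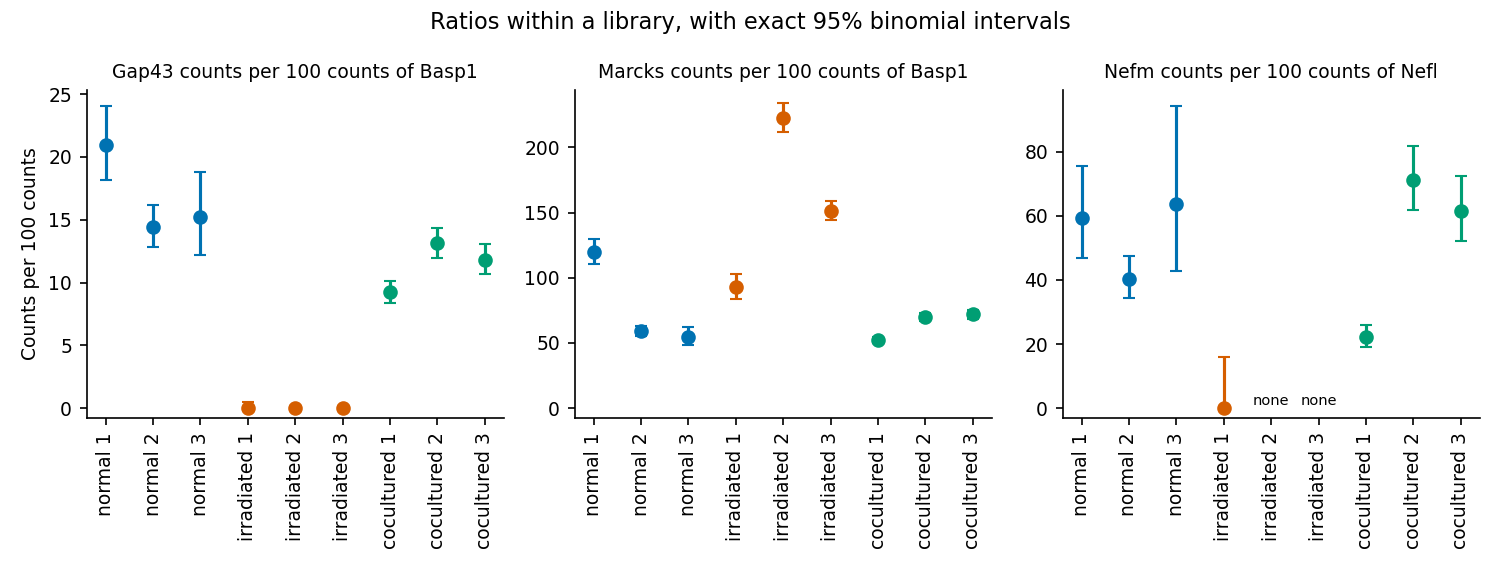
Counts of 1 gene per 100 counts of another within each of the 9 libraries, with exact 95% binomial intervals as bars and colours for the 3 groups. Gap43 per 100 Basp1 counts is 0 in the irradiated libraries and 9.21 to 20.95 in the others, and Nefm per 100 Nefl counts could be computed in irradiated 1 alone of the irradiated libraries.

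The neurofilament genes had few or no counts in irradiated libraries. Nefl was measured at 39.0, 121 and 18.9 CPM in normal, 5.32, 0 and 0 in irradiated and 101, 51.3 and 43.2 in cocultured libraries. All the irradiated Nefl counts came from irradiated 1, with 25, and this library was still below the lowest normal one. Pooled over each group, Nefl was 58.3-fold higher in normal than in irradiated constructs, with a counting interval of 39.2 to 90.7. The ratio of the group means, in which each library weighs the same, was 33.5. The fitted log2 fold change was -5.13 ± 1.65 (SE), which became -4.07 without normal 2 and -4.53 and -4.54 without irradiated 2 and 3, and without irradiated 1 there was no irradiated count at all. Nefm was measured at 23.2, 48.6 and 12.0 CPM in normal and 22.4, 36.5 and 26.6 in cocultured libraries, and had no count in irradiated ones. The bound was at least 222-fold lower than normal and at least 226-fold lower than cocultured. It was 123-fold and 125.5-fold without irradiated 2, 143-fold and 146-fold without irradiated 3, and 140-fold against normal without normal 2. At a mean of 28.2 CPM over normal and cocultured libraries, Nefm lay where 1.08% of 2963 genes lacked counts in all irradiated libraries. In irradiated 1, 2 and 3 taken singly, this share was 5.23%, 20.5% and 17.1%.

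Nefm counts per 100 Nefl counts were 59.5, 40.3 and 63.8 in normal and 22.2, 71.2 and 61.5 in cocultured libraries, so the cocultured spread enclosed the normal one. In irradiated 1 the ratio was 0 of 25 with an upper limit of 15.9 per 100. Nefl and Nefm are neighbours on the same chromosome. The heavy subunit of the same filament, Nefh, had no count in any library. Ina, another neuronal filament gene, was listed at 0 to 5.91 CPM in normal, 0 to 4.90 in irradiated and 0 to 0.103 in cocultured libraries. Prph, the peripherin gene, reached 10.9 CPM in a normal library and had no count in irradiated ones, and it did not pass the low-count filter. Nefh, Ina and Prph were named after their values had been seen.

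Erbb3 was measured at 25.3, 13.9 and 7.12 CPM in normal, 0, 0 and 0 in irradiated and 6.54, 13.7 and 1.81 in cocultured libraries. Cocultured and normal ranges overlapped, and cocultured 3 was the lowest library with counts. Erbb3 was at least 122-fold lower in irradiated than in normal constructs and at least 58.3-fold lower than in cocultured ones. Without irradiated 2 the bounds were 67.9-fold and 32.3-fold, without irradiated 3 they were 78.8-fold and 37.5-fold, and the second was 33.2-fold without cocultured 2. At a mean of 11.4 CPM over normal and cocultured libraries it lay where 5.99% of 2172 genes lacked counts in all irradiated libraries. In irradiated 1, 2 and 3 taken singly, 18.3%, 44.8% and 39.8% of these genes had no count. The bounds cover counting error only and do not allow for such losses. Erbb2, the receptor through which ERBB3 signals, was at 17.7 to 29.0 CPM in normal, 0 to 24.3 in irradiated and 5.68 to 10.55 in cocultured libraries. Erbb4 was at 0 to 12.95 CPM in normal libraries and had 1 count in the irradiated and 1 in the cocultured group. Erbb2 and Erbb4 were likewise named after their values had been seen.

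Ncam1 was present throughout, at 271, 379 and 114 CPM in normal, 317, 484 and 316 in irradiated and 485, 303 and 234 in cocultured libraries. The 3 ranges overlapped. Group means were 254 ± 133, 372.5 ± 96.3 and 341 ± 130 CPM (SD, n = 3 each), and the log2 difference of irradiated from normal constructs was 0.55 ± 0.44 (SE). Ncam1, Basp1 and Marcks were thus the genes of the set with counts in all 9 libraries at levels above 90 CPM. In order of mean, Marcks and Ncam1 were highest in irradiated and lowest in normal constructs, with each neighbouring pair within its spread.

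Counted over the set, 4 of 8 genes had all irradiated values below all normal ones, namely Gap43, Nefl, Nefm and Erbb3, and none had all above. Over all tested genes these shares were 11.8% lower and 3.94% higher. Against cocultured constructs 5 of 8 were lower without overlap, the same genes and Basp1, beside 10.6% of all genes, and none was higher, beside 3.9%. These counts use the libraries that chose the set and are given as description. At a Benjamini-Hochberg adjusted p of 0.05, the quasi-likelihood test of edgeR called 7 of 11980 genes (0.0584%) in irradiated against normal and 4 (0.0334%) in irradiated against cocultured constructs. The 2 comparisons share the irradiated libraries.

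Cocultured against normal constructs was the contrast in which the set could be tested, and no gene of it passed. The fitted log2 fold change was 0.08 ± 0.81 (SE) for Gap43, with a 95% interval from -1.70 to 1.86. Basp1 gave 0.62 ± 0.42 with an interval from -0.28 to 1.53, and Marcks 0.41 ± 0.48 with -0.63 to 1.44. For Ncam1 the values were 0.42 ± 0.43 and -0.52 to 1.36. The neurofilament genes were near 0 with wide intervals, Nefl at 0.13 ± 1.37 from -2.82 to 3.08 and Nefm at 0.03 ± 1.28 from -2.80 to 2.85. The genes with the lowest counts had the widest intervals, Marcksl1 at -0.75 ± 2.24 from -5.59 to 4.10 and Erbb3 at -1.07 ± 2.15 from -5.81 to 3.67. The adjusted p of edgeR was 1 for each of the 8, and the smallest unadjusted p was 0.161, for Basp1.

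Over all genes edgeR called 0 of 11980 (0%) in cocultured against normal constructs, with 492 (4.11%) at an unadjusted p under 0.05, of which 0 were in the set. DESeq2 called 134 of 15030 genes and limma voom 0 of 11980, none of them in the set. No gene of the set had groups without overlap, beside 5.66% of all genes higher and 7.51% lower. The intervals of Basp1, Marcks and Ncam1 leave room for about a doubling or more, and those of Gap43 and the low genes for larger differences in either direction, so the design does not show that coculture left these genes unaltered. Scaling by library totals alone moved the median of all genes from -0.07 to 0.48 on the log2 scale. The set's values then became 1.10 for Basp1, 0.84 for Marcks, 0.86 for Ncam1, 0.54 for Gap43, 0.56 for Nefl, 0.47 for Nefm, -0.32 for Marcksl1 and -0.64 for Erbb3. Relative to that shift, Gap43, Nefl and Nefm stayed near the median of all genes. Basp1 then stood at 515 to 704 CPM in cocultured and 98.7 to 480 in normal libraries, and Marcks at 360 to 371 and 54.2 to 284, without overlap. The share of all genes without overlap under this scaling was not determined, so these 2 genes cannot be set against it. Leaving out normal 3 gave -0.22 for Gap43, -0.28 for Nefl and -0.33 for Nefm, while leaving out normal 2 gave 0.49, 1.17 and 0.70, so the sign of these genes depended on the libraries kept. Basp1 was at 1.22 without normal 2, and Erbb3 was at -1.88 without cocultured 2, with an edgeR adjusted p of 1 in each case.

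**Figure D3:**
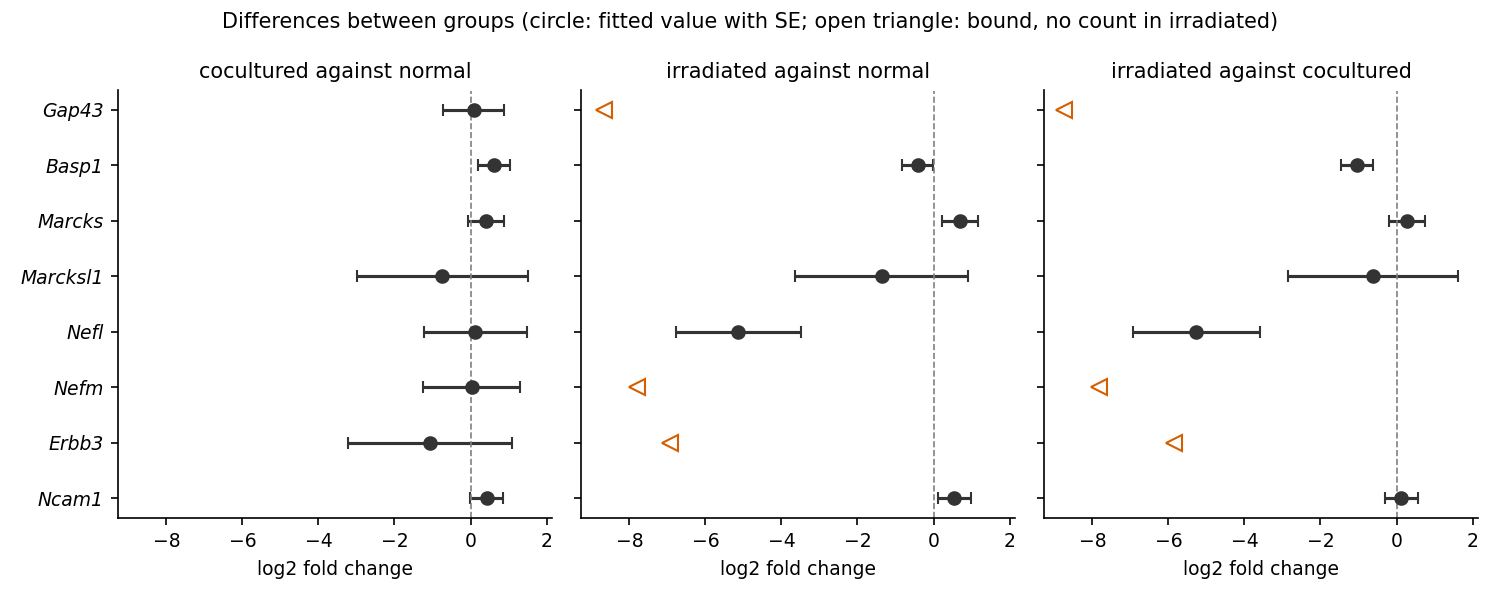
Log2 fold change of each gene in 3 comparisons, with circles for fitted values, bars for 1 SE and open triangles for bounds where irradiated libraries had no count. In cocultured against normal constructs the points lie between -1.07 and 0.62, and the triangles of Gap43, Nefm and Erbb3 appear in both comparisons with irradiated constructs.

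Genes whose profile over the 9 libraries was most like that of Gap43 were ranked by Pearson's correlation of log2 CPM among 8124 genes with a mean of at least 10 CPM. Nefm came first at r = 0.997 (Spearman's rho 0.9496), followed by Sox5 at 0.997 (0.815), Sprr1a at 0.996 (0.815), Aspm at 0.994 (0.782), C9orf72 at 0.994 (0.899) and Ptch1 at 0.990 (0.798). SOX5 is a transcription factor of cartilage and neural crest, SPRR1A is induced in injured neurons and in stressed epithelium and muscle, ASPM acts at the mitotic spindle, and PTCH1 is the hedgehog receptor. Of these, 5 shared with Gap43 the lack of any irradiated count, and Ptch1 had 1 such count. Sprr1a averaged 33.3 ± 12.5 CPM in normal and 41.4 ± 17.2 in cocultured constructs (SD, n = 3 each). Sox5 averaged 22.6 ± 8.68 and 32.8 ± 6.004, and Aspm 19.6 ± 3.42 and 30.7 ± 2.74 (SD, n = 3 each).

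The libraries without counts set most of this ranking. Over the 6 normal and cocultured libraries alone, the correlation with Gap43 was 0.947 for Nefm, at rank 51, and 0.811 for Sox5, at rank 686. The other 4 genes gave 0.401 to 0.711 and lay at ranks 1136 to 2402. The correlations are descriptions over libraries that share depth and composition and carry no p.

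**Figure D4:**
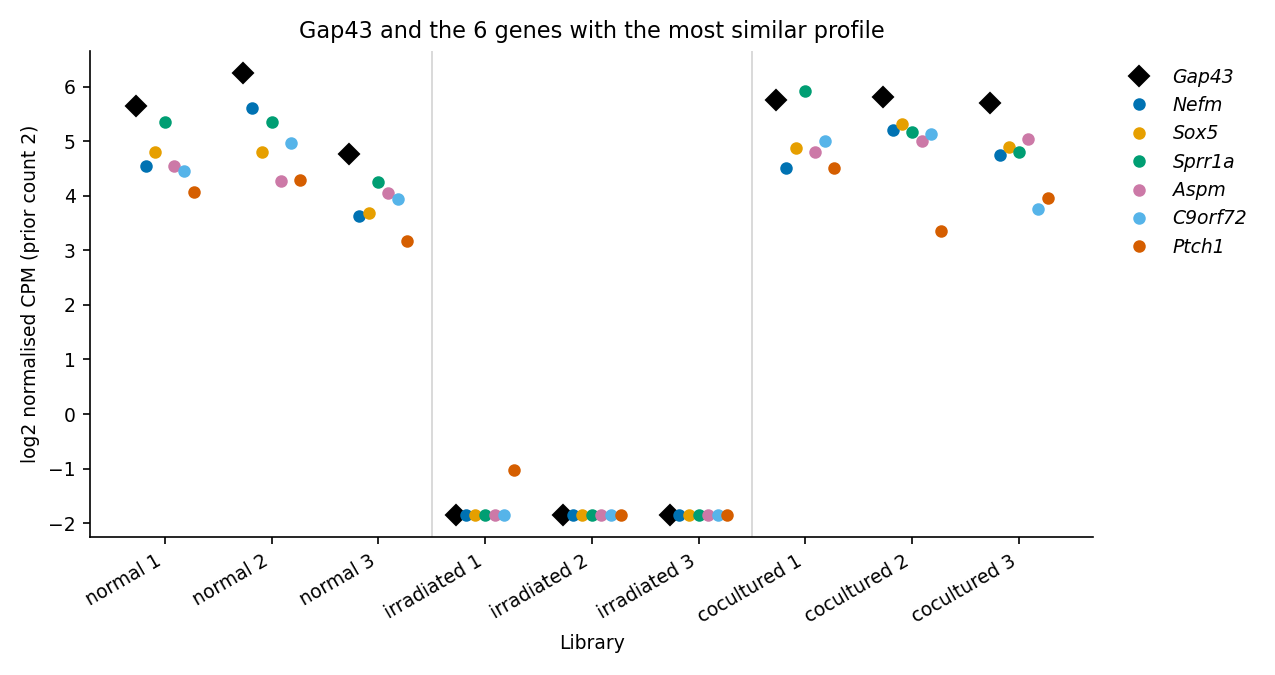
Log2 normalised CPM with a prior count of 2 in each library for Gap43, as diamonds, and the 6 genes most correlated with it, as circles. The points drop to the value of no count in the irradiated libraries, with 1 count for Ptch1 in irradiated 1, and differ in order among the other 6 libraries.

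Genes around the set were described through 6 lists with 125 entries, of which 88 were tested. These lists were chosen with earlier results of these data known. edgeR called 0 of the 88 in cocultured against normal, irradiated against normal and irradiated against cocultured constructs, beside 0%, 0.0584% and 0.0334% of all genes. At an unadjusted p under 0.05 the edgeR counts were 5, 16 and 13 of the 88. Over all 11980 genes they were 492 (4.11%), 1232 (10.3%) and 1148 (9.58%). The lists' share was thus above that of all genes in each comparison, and the difference was not tested. DESeq2 called 1, 9 and 7 of the listed genes, beside 134 of 15030, 667 of 13290 and 635 of 12361 genes with an adjusted p. Limma voom called 0, 1 and 1, beside 0, 25 and 105 of 11980 genes. The lists' median log2 fold change was -0.09 in cocultured against normal, -0.26 in irradiated against normal and -0.19 in irradiated against cocultured constructs, and the medians of all genes were -0.07, -0.21 and -0.10. No irradiated count was found for 6 of the 88 (6.82%), namely Stmn4, Sprr1a, Robo2, Slit3, Krt19 and Areg, against 7.88% of all genes.

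Of 34 axon growth and growth cone genes, 27 were tested, and their median was 0.17 in cocultured and -0.70 in irradiated against normal constructs. Dclk1, a microtubule-binding kinase, was at 263 ± 58.1 CPM in normal, 707 ± 33.4 after irradiation and 462 ± 118.5 in coculture (SD, n = 3 each), and the log2 difference of irradiated from normal was 1.43 ± 0.32 (SE), with an edgeR adjusted p of 0.146. Tubb2b, a neuronal tubulin, had 760 ± 377, 232 ± 136 and 385 ± 104 CPM (SD, n = 3 each). Dpysl3, which binds tubulin in growth cones, had 104 ± 51.0, 235 ± 27.5 and 223 ± 15.5 CPM (SD, n = 3 each). Neither gene passed in the main test, with edgeR adjusted p of 0.291 and 0.399 in irradiated against normal constructs and 1 for both in cocultured against normal. DESeq2 called Dclk1, Tubb2b and Dpysl3 in irradiated against normal constructs, together with Stmn4, Sprr1a, Slit3, Krt19, Cdh11 and Elavl1. In the same comparison, edgeR without a filter on low counts called Dclk1, Tubb2b, Sprr1a, Hbegf, Errfi1 and Elavl1. Over all genes DESeq2 called 667 of 13290 there, and edgeR without the filter 130 of 18619. Slit2, a guidance ligand, was at 277, 218 and 229 CPM in the 3 groups, while its relative Slit3 had 16.2 CPM in normal constructs and no count in the other 6 libraries. Slit3 was the gene of the lists that DESeq2 called in cocultured against normal constructs.

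Of 25 partners in calmodulin binding, protein kinase C signalling and acylation, 22 were tested, with medians of -0.19 in cocultured and 0.07 in irradiated against normal constructs. Calm2, a calmodulin gene, was at 597 CPM in normal constructs, 453 after irradiation and 634 in coculture. Ppp3ca, the calcineurin catalytic subunit, was at 494, 715 and 661 CPM, and Camk2b, a calmodulin-dependent kinase, at 30.9, 20.95 and 7.19. Of 13 intermediate filament genes 7 were tested, with medians of -0.52 and -0.72, and Nefh, Gfap and Krt8 had no count. Vim, the filament of mesenchymal cells, was at 1205, 1190 and 1806 CPM, and Des, the muscle filament, at 1001, 782.5 and 571. Plec, the filament linker plectin, was at 698, 423 and 486 CPM, and Synm, a partner of desmin, at 87.2, 109 and 21.25. Synm spread widely, over 13.6 to 223.8 CPM in normal, 23.0 to 270.9 in irradiated and 10.4 to 35.7 in cocultured libraries. Of these filament and calmodulin genes, none passed in any of the 3 comparisons by edgeR with the low-count filter.

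Of 19 neuregulin and ErbB genes 12 were tested, with medians of -0.08 in cocultured and -0.63 in irradiated against normal constructs, and Tgfa had no count. Nrg1, the ligand of ERBB3, was at 18.2 ± 15.1 CPM in normal, 29.1 ± 7.72 after irradiation and 32.2 ± 21.85 in coculture (SD, n = 3 each), so the ligand was detected in irradiated constructs where Erbb3 was not. Errfi1, an inhibitor of ErbB receptors, was at 105, 20.3 and 140 CPM, Egfr at 78.1, 76.6 and 59.3, and the adaptor Grb2 at 122, 82.6 and 103. Of 16 partners and modifiers of NCAM1 12 were tested, with medians of -0.09 and 0.19. Sptbn1, a spectrin under the membrane, was at 619, 540 and 502 CPM, the kinase Fyn at 86.9, 124 and 156, Fgfr1 at 94.1, 105 and 136, and the adhesion gene Alcam at 66.6, 83.1 and 28.8. The enzymes that add polysialic acid to NCAM1 were nearly without counts. St8sia2 had 20 counts in normal and none in other libraries, and St8sia4 had 1 in normal and 96 in cocultured ones. The 20 and the 96 counts came from a single library each. Both genes were named after their values had been seen.

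Of 18 neural transcription regulators 8 were tested, with medians of -0.03 and -0.27. Neurog1, Neurog2 and Neurod1, which drive neuron formation, had no count in any library, and neither had the neural crest factor Foxd3. Rest, the repressor of neuronal genes outside neurons, was at 119 ± 39.1 CPM in normal, 167 ± 124.5 after irradiation and 124 ± 38.8 in coculture (SD, n = 3 each), with overlapping ranges. Sox9 was at 207, 232 and 237 CPM, Zeb2 at 99.9, 95.4 and 87.9, and the neuronal RNA-binding gene Elavl3 at 3.05, 4.59 and 0.276.

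**Figure D5:**
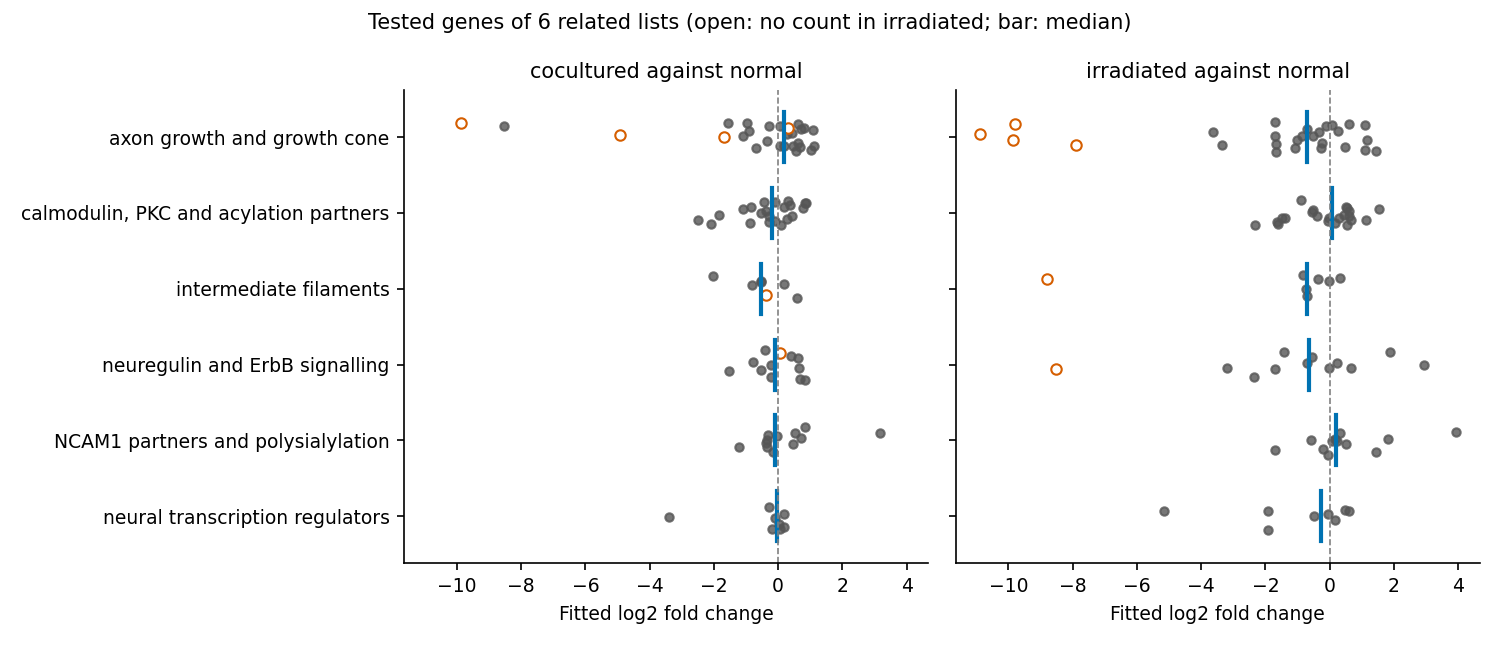
Fitted log2 fold change of the 88 tested genes in 6 lists, for cocultured and for irradiated against normal constructs, with 1 point per gene, open points for genes without irradiated counts and a bar at each list's median. Medians lie between -0.52 and 0.17 on the left and between -0.72 and 0.19 on the right, and fitted values of open points depend on the prior count.

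Markers of cells that normally express these genes were sparse. Of 15 neuron markers 10 were detected, with summed levels of 51.7 to 163 CPM in normal, 34.3 to 91.05 in irradiated and 120 to 147 in cocultured libraries. Snap25, Chga, Slc17a7, Chat and Isl1 had no count. Stmn2 and Map2 were the highest, Stmn2 at 45.0, 31.0 and 73.7 CPM and Map2 at 22.4, 12.3 and 27.25. Of 12 Schwann cell and neural crest markers 11 were detected, with sums of 34.1 to 91.4 CPM in normal, 7.98 to 36.2 in irradiated and 16.3 to 26.1 in cocultured libraries, and Foxd3 had no count. Mbp was at 12.1, 11.7 and 0.0721 CPM and S100b at 17.3, 3.55 and 1.27 in the 3 groups. Sox10, a defining marker of Schwann cells, had 38 counts in normal libraries and none in irradiated or cocultured ones. The neuron sums of cocultured libraries were above those of irradiated ones and were mostly Stmn2 and Map2. Means of Tubb3, Syt1, Uchl1 and Gad1 were also higher in cocultured constructs. They were 21.8, 1.07, 5.99 and 3.93 CPM against 1.70, 0, 4.05 and 0 in irradiated ones. Of these, only Tubb3 did not overlap, at 20.4 to 23.5 CPM in cocultured and 0 to 5.11 in irradiated libraries. The cocultured counts of Syt1 and Gad1, and the irradiated counts of Tubb3, Uchl1 and Map2, came from a single library each. Tubb3 was at 21.05 CPM in normal constructs. Means of Rbfox3, Syp and Elavl3 were lower in cocultured than in irradiated constructs, at 0, 0 and 0.276 CPM against 13.4, 2.27 and 4.59. The irradiated counts of Rbfox3 and Syp came from a single library each. Elavl4 had no count in either group. Normal and irradiated neuron sums overlapped, and the Schwann cell sums of irradiated libraries overlapped those of both other groups. Tubb3, Syt1, Uchl1, Gad1, Elavl4, Rbfox3, Syp, Sox10, Egr2, Mal and Prx were named after their values had been seen. The part of such cells in the levels of these genes was not tested.

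Of 8 astrocyte and oligodendrocyte markers 5 were detected, with sums of 29.8 to 95.9 CPM in normal, 212 to 404 in irradiated and 87.4 to 147 in cocultured libraries, and Gfap, Olig1 and Mog had no count. The sums were mostly Slc1a3, a glutamate transporter also made outside the brain, at 44.6, 293 and 110 CPM, followed by Cnp at 9.51, 13.6 and 15.0. All 7 fibroblast markers were detected, at summed levels of 10370 to 17490, 7526 to 12210 and 11460 to 15780 CPM, led by Dcn and Col3a1. The 6 endothelial markers, led by Kdr and Cdh5, summed to 2.04 to 31.5, 0.117 to 39.6 and 0 to 8.04 CPM. The 6 macrophage markers, led by Csf1r and C1qa, summed to 12.1 to 41.3, 0 to 33.2 and 0.113 to 0.214 CPM. All endothelial and macrophage markers and 11 of 12 Schwann cell markers thus had some counts, so detection alone does not separate cell types here. The summed neuron markers reached 163 CPM at most, and the muscle and fibroblast sums were at least 4155 and 7526 CPM. The genes of the set are called here by their symbols.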

How the data were processed

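RNA of 9 constructs was read as QuantSeq 3′ FWD libraries made from 100 ng of total RNA, with 75 bp single reads, per the labels' protocols. The authors deposited whole-number counts per gene symbol, not normalised. Per the submitters' processing notes, the tools named were FastQC, STAR and HTSeq, with no versions, and the builds GRCm39 and mm39. Annotation and strand setting: not given in the sources used here. Reads of overlapping genes may therefore be shared. Column names of the files carry a number 1 above the labels, those of the normal files with a prefix that the labels do not use, and files were matched to samples through the series' file record. Totals were 4840993 to 8290468 counts.

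Counts were tested with edgeR 4.0.16 in R 4.3.3 (filterByExpr defaults, TMM, glmQLFit and glmQLFTest, 1 fit over 9 libraries with group as the term). A gene was called at an adjusted p (Benjamini-Hochberg over 11980 genes) under 0.05. The common dispersion had a square root of 1.32. Approximate standard errors were derived from the fold change on the log2 scale and its F value. Intervals use a t quantile. A gene without counts in a group was set at a floor of 3 counts over the group. Ratios carry exact binomial intervals at 95%. Alternatives used DESeq2 1.42.0, limma 3.58.1 (voom), other scalings and filters, and left-out libraries. The test was checked on simulated data.

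The members and lists were chosen with earlier results of these data known. The rule for named genes took the 8 members, the 6 genes most correlated with Gap43, in each of 6 pathway lists (axon growth, calmodulin and protein kinase C, intermediate filaments, neuregulin and ErbB, NCAM1 partners, neural transcription regulators) the 3 highest genes, the 2 with the smallest p in cocultured against normal and any called, and in each of 7 marker lists (neuron, Schwann cell, astrocyte and oligodendrocyte, muscle, fibroblast, endothelial, macrophage) the 2 highest. Some listed genes are not reported here. Promoters were taken from a RefSeq table of build GRCm38.p6. Neighbouring genes were taken from the order of protein-coding genes along each chromosome in a RefSeq gene table, and no other coordinates are printed.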

Additional observations from a re-analysis of the deposited data

How the results depend on the processing

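No gene of the set was called in cocultured against normal constructs under any alternative run. Signs turned, with an adjusted p of 1 each time, for Gap43 (-0.22 without normal 3, -0.22 without both normal 3 and irradiated 1), Nefl (-0.10 without normal 1, -0.28 without normal 3, -0.33 without cocultured 1, -0.28 without both) and Nefm (-0.08 without normal 1, -0.33 without normal 3, -0.19 without cocultured 2, -0.34 without both, -0.002395 with upper quartile factors). Without normal 2 the values were 0.49 for Gap43, 1.17 for Nefl and 0.70 for Nefm. Genes called over the whole table moved more. In cocultured against normal constructs the 0 calls became 134 with DESeq2, 52 without a filter on low counts and 1 without both libraries, and stayed 0 without any single library. In irradiated against normal constructs the 7 calls became 667 with DESeq2, 25 with limma voom, 130 without a filter, 0 with only the 6 libraries of the comparison and 20 without both. Leaving out 1 library gave 6 to 147, with 147 without irradiated 1, 13 without irradiated 2, 17 without irradiated 3 and 14 without normal 2. In irradiated against cocultured constructs the 4 calls became 635 with DESeq2, 105 with limma voom, 9 with library totals, 153 without a filter, 0 with only 6 libraries and 21 without both. Leaving out 1 library gave 1 to 97, with 97 without irradiated 1, 11 without irradiated 2, 13 without irradiated 3, 7 without normal 2, 8 without cocultured 1, 2 without cocultured 3 and 1 without normal 1 or normal 3. The cause was not tested. Listed pathway genes called, 0 in each comparison, became 1 with DESeq2 in cocultured against normal constructs. In irradiated against normal they became 9 with DESeq2, 1 with limma voom and 6 without a filter, and 0 to 2 without 1 library. In irradiated against cocultured they became 7 with DESeq2, 1 with limma voom, 1 with library totals and 3 without a filter, and 0 to 2 without 1 library. Of the 6 genes most like Gap43, 1 stayed among the first 6 by Spearman's correlation, 2 to 6 did so without 1 library, and 0 did over the 6 normal and cocultured libraries, an alternative chosen after seeing the data. Same-numbered libraries deviated from their group means with correlations of -0.0722 to 0.0502, so the numbers were not taken to pair samples. A fit with the replicate number as a block called 23 genes in irradiated against normal and 12 in irradiated against cocultured constructs, and 0 in cocultured against normal. Depth limits Erbb3 and Marcksl1 most, with 0 to 132 counts per library.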

Other observations

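Gm52229, the predicted gene listed next to Gap43 in the reference table, was at 23.1 CPM in normal, 0 after irradiation and 0.0345 in coculture, whereas Gap43 averaged 54.0 CPM in the cocultured constructs. The neighbour on the other side, Zbtb20, a transcriptional repressor, was at 623, 570 and 537 CPM in the same order. These neighbours were looked at after the values of Gap43 were known. The edgeR adjusted p in cocultured against normal constructs was 1 for Gm52229 and 1 for Zbtb20, and in irradiated against normal constructs it was 0.398 and 1.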
